A study of Mus musculus with 6 samples.

Results

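The Hoxb genes lie in 1 stretch of mouse chromosome 11 and encode homeodomain transcription factors. The 9 members described here, Hoxb13, Hoxb9, Hoxb8, Hoxb7, Hoxb6, Hoxb5, Hoxb3, Hoxb4 and Hoxb2, were taken by name from the 23725 gene rows of the deposited table, and all 9 had a row. They were selected on their normalized reads in these same 6 libraries, knockout against wild type, so their values, differences and calls are given as a description and carry no test.

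Hox genes are arranged in 4 clusters, Hoxa to Hoxd, and are numbered by paralog group from the anterior-expressed to the posterior-expressed end. Along the gut, genes of high number mark the hindgut, and they keep regional expression in the adult colon. Hox proteins bind DNA with cofactors of the TALE homeodomain class, Polycomb and Trithorax complexes keep their chromatin silent or active, and Cdx factors and retinoic acid regulate their transcription.

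RNA was measured in bulk from colonic epithelial cells that were enriched on a Percoll gradient and not cultured. The knockout group (n = 3 libraries) came from C57BL/6J mice of the genotype B6-Cg-Nr3c1-Vil-Cre/ERT2, written Nr3c1 IEC-/-, in which Nr3c1, the glucocorticoid receptor gene, is the target of a Cre recombinase that tamoxifen activates. The villin promoter of the transgene is active in intestinal epithelium, so other cells in the preparation keep the gene. The wild type group (n = 3 libraries) had the same strain background. Both groups received 5 daily intraperitoneal injections of tamoxifen, and cells were collected 7 days from the first of them. The labels do not give the ages of the mice, the deleted exon or whether the wild type mice carried the transgene, nor do they say that each library is a separate mouse, so p-values measure only the spread between these libraries.

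Libraries held 10089313 to 12030844 whole reads. Values are reads divided by the authors' size factor of each library, called normalized reads here. Nr3c1 had 145, 123 and 175 normalized reads in the knockout libraries, against 1119.8, 967 and 197 in the wild type libraries (log2 change -2.03, SE 0.60, limma adjusted p = 0.0372). Its exact two-sided permutation p was 0.1, the smallest that 3 against 3 libraries allow. At Nr3c1 a library labelled wild type, numbered replicate 3 here because the labels give no number, was therefore near the knockout level. That goes against its genotype label. It is called the library labelled wild type replicate 3 below. Other genes placed it elsewhere. For the immune marker S100a8 it had 14.6 normalized reads, against 11.7 and 20.5 in the other wild type libraries and 599 to 2129 in knockout libraries. In the Hoxb genes from Hoxb9 to Hoxb2 it was intermediate, as given below. Without it the log2 change of Nr3c1 was -2.82. Values with that library left out are given beside those of all 6. The summed level of 8 epithelial markers was 278160 to 317360 normalized reads in knockout and 252080 to 296900 in wild type libraries. Of these 8, 2 rose, Krt20 (log2 change 0.99, limma adjusted p = 0.0074) and Vil1 (0.59, limma adjusted p = 0.0134). The call of Vil1 was lost without replicate 1 (0.0643) or 2 (0.0671) of the wild type. In the same preparations 6 of 10 tested immune markers rose, with summed levels of 6788, 2717 and 2576 in knockout and 499, 730.45 and 1059 in wild type libraries. The fibroblast sums were 2421.5, 490.45 and 977 in knockout and 168, 290.4 and 607 in wild type libraries, and 2 of 5 tested fibroblast markers rose. Over all genes tested, 15.0% were called higher. In bulk RNA, fewer cells of a type and less RNA per cell cannot be told apart, and the part of these other cells in the Hoxb values was not tested.

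The Hoxb genes with numbers from 2 to 9 were lower in every knockout library than in every wild type library, whereas Hoxb13, the most posterior and most abundant one, was not. Over all genes tested, 25.5% were lower in this way without overlap of the groups, and 25.2% higher. Of the 9 members, 8 passed the filter of at least 10 normalized reads in at least 3 libraries, and Hoxb2 did not. Limma with Benjamini-Hochberg adjustment over all 12837 genes tested called 7 members lower, 0 higher and 1, Hoxb13, in neither direction. Over all genes tested, 15.4% were called lower, 15.0% higher and 30.5% in either direction. Nothing is read from the members' count, since this contrast chose them. The same split of 7, 0 and 1 was found without the library labelled wild type replicate 3, where 12.5% of all genes were called lower, 12.6% higher and 25.1% in either direction. edgeR on the recovered reads also called 7 members lower and 0 higher, with 15.6% of all genes lower and 30.3% in either direction. DESeq2 called 7 lower and 1 higher, with 15.7% of all genes lower and 32.4% in either direction. Hoxb5 and Hoxb4 reached 10 normalized reads in at most 1 knockout library and so passed the filter only through the wild type group. The median log2 change of the 8 tested members was -1.90, against 0.01 for all genes tested.

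**Figure D1:**
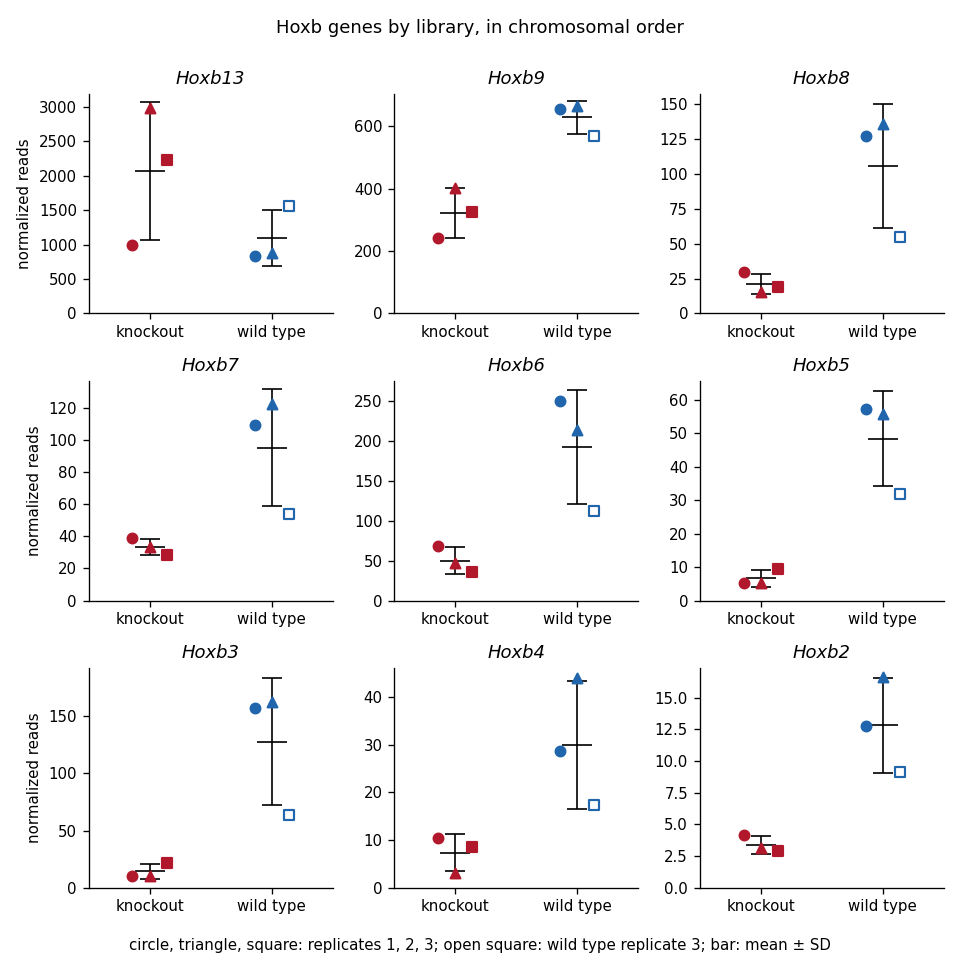
Normalized reads of the 9 Hoxb genes (vertical axis of each panel, starting at 0) in the 3 knockout libraries (red) and the 3 wild type libraries (blue), with bars at the mean ± SD. In Hoxb9 to Hoxb2 every red point lies below every blue one, the open square of the library labelled wild type replicate 3 is the lowest blue point, and in Hoxb13 the groups overlap.

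Hoxb13 lies at the 5′ end of the cluster (Entrez 15408, chr11:96194316-96196610, plus strand, GRCm38) and is expressed in distal colon and rectum and in prostate. It had 993, 2984 and 2223 normalized reads in the knockout libraries, against 839.6, 881 and 1566 in the wild type libraries. The groups overlap, because knockout replicate 1 lies below the library labelled wild type replicate 3. The means were 2067 ± 1005 in knockout and 1095 ± 408 in wild type libraries (SD, n = 3 each), a ratio of 1.89. The log2 change was 0.84 (SE 0.41), or 1.12 (SE 0.42) with the library labelled wild type replicate 3 left out, and it was not called in either case. Without knockout replicate 1, the library with the highest fibroblast and immune marker sums, the log2 change was 1.29 and Hoxb13 was called higher. Without knockout replicate 2 it was 0.50. DESeq2 and limma with library weights also called it higher and edgeR did not, where DESeq2 called 16.7% and edgeR 14.7% of all genes higher. Of the 12837 genes tested, limma called 2052 higher with library weights and 1578 without knockout replicate 1.

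Hoxb9, a gene of the posterior trunk and the second most abundant member, lies about midway along the cluster (Entrez 15417, chr11:96271330-96276595). It had 241, 402.5 and 325 normalized reads in knockout and 654, 664 and 567 in wild type libraries. All wild type libraries were above all knockout libraries, and the library labelled wild type replicate 3 stood close to the other two. The means were 323 ± 80.7 in knockout and 628 ± 53.1 in wild type libraries (SD, n = 3 each), and the log2 change was -0.99 (SE 0.19), the smallest fall among the members called.

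Hoxb8 (Entrez 15416, chr11:96279401-96285325), known for its part in myeloid progenitors and microglia, had 29.4, 15.5 and 19.1 normalized reads in knockout and 127, 136 and 54.6 in wild type libraries. The groups did not overlap, and the library labelled wild type replicate 3 was well below the other two of its group. The means were 21.3 ± 7.18 in knockout and 106 ± 44.7 in wild type libraries (SD, n = 3 each). On the log2 scale the change was -2.20 (SE 0.40), or -2.62 with the library labelled wild type replicate 3 left out.

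Hoxb8 is also the member with a textbook microRNA site, and its site is shown with the miRNAs of the clusters. The precursor gene Mir196a-1 of miR-196a lies between Hoxb13 and Hoxb9, and another, Mir196a-2, lies in the Hoxc cluster and had no read. The precursor of miR-10a lies beside Hoxb4, while miR-196b comes from the Hoxa cluster. The RefSeq (GRCm38.p6) mature sequences follow 5′ to 3′, with the seed (bases 2 to 8) in capitals, and the first pair shares the seed AGGUAGU.
mmu-miR-196a-5p: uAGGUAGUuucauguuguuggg
mmu-miR-196b-5p: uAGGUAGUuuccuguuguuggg
mmu-miR-10a-5p: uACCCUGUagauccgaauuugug
Hoxb8 site: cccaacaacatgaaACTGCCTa
The site lies in the 3′ UTR of Hoxb8 at chr11:96284888-96284909 on the plus strand (GENCODE M21, GRCm38), and its capitals mark the bases opposite the seed. Of the 22 bases of miR-196a, 21 pair with it and 1, at position 5, makes a G:U wobble. In each of the other members, the best match was the stretch with the most paired plus G:U wobble bases. It held 7 to 13 paired bases and 4 to 11 wobbles. A stretch with more paired bases but fewer wobbles could have been passed over, so 13 is not an upper limit. These are mRNA libraries and do not measure mature miRNAs. The Mir196a-1 gene row (chr11) had 10.5, 6.21 and 15.3 normalized reads in knockout and 20.2, 27.4 and 16.4 in wild type libraries, and was not called (log2 change -0.99, SE 0.40, limma adjusted p = 0.0956).

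RefSeq promoter windows, 250 bases before to 50 after a transcript start, were matched for 2 of the 9 members, Hoxb8 and Hoxb4. The window of Hoxb8, whose start lies inside the gene's annotated span, is shown. It covers chr11:96281655-96281954 on the plus strand (GRCm38.p6), and capitals mark TTTATG on either strand, a core that Cdx proteins bind.
Hoxb8 promoter: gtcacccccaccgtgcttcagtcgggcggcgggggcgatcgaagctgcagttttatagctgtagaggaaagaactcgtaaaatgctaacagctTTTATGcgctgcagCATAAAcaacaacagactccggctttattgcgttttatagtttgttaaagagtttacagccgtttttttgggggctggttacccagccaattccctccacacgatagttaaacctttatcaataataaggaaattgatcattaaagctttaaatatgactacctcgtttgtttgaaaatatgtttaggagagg
TTTATG was found 2 times here and 0 times in the Hoxb4 window, and 11.9% of all 32851 promoter windows of this length hold it. The glucocorticoid receptor core AGAACA, searched on both strands, was in neither window, against 19.0% of all windows. A match is a description of letters and no match says only that the letters are not in this window. Whether Cdx proteins act on Hoxb8 in these cells was not tested.

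Hoxb7 (Entrez 15415, chr11:96285604-96290163), a trunk gene, had 38.8, 33.1 and 28.6 normalized reads in knockout and 109, 122 and 53.7 in wild type libraries. Hoxb6 (Entrez 15414, chr11:96292814-96301569), best known from lateral plate mesoderm and limb bud, had 68.1, 46.6 and 35.3 in knockout and 249, 213 and 112 in wild type libraries. In both genes the groups were apart and the library labelled wild type replicate 3 lay well below the other wild type libraries. Hoxb7 averaged 33.5 ± 5.09 in knockout and 95.1 ± 36.4 in wild type libraries, a log2 change of -1.40 (SE 0.33). For Hoxb6 the averages were 50.01 ± 16.7 in knockout and 191.5 ± 71.2 in wild type libraries, a log2 change of -1.89 (SE 0.35). The call of Hoxb7 was lost when knockout replicate 3, or replicate 1 or 2 of the wild type, was left out, while that of Hoxb6 was kept without any of the 6.

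Hoxb5 (Entrez 15413, chr11:96303512-96306121) acts in the precursors of enteric neurons. It had 5.24, 5.17 and 9.55 normalized reads in knockout and 57.3, 55.7 and 31.9 in wild type libraries. Even the lowest wild type library was thus above every knockout library, all of which were under 10. The means were 6.65 ± 2.51 in knockout and 48.3 ± 14.3 in wild type libraries, with a log2 change of -2.69 (SE 0.37). With a pseudocount of 5 in place of 1, this log2 change was -2.175. The 8 enteric neuron and glia markers summed to 6.21 to 9.55 normalized reads in knockout and 3.18 to 9.78 in wild type libraries, with Sox10 and Gfap at 0 in every library.

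Hoxb3 (Entrez 15410, chr11:96307101-96347930), Hoxb4 (Entrez 15412, chr11:96318267-96321638) and Hoxb2 (Entrez 103889, chr11:96351632-96354020) are the members nearest the 3′ end of the cluster. Hoxb4 lies inside the annotated span of Hoxb3, and Hoxb1, which had no read, lies beyond Hoxb2. Hoxb2 and Hoxb3 pattern the hindbrain, and Hoxb4 expands haematopoietic stem cells. Hoxb3 had 10.5, 10.3 and 22.0 normalized reads in knockout and 157, 162 and 63.8 in wild type libraries, and Hoxb4 had 10.5, 3.10 and 8.59 in knockout and 28.7, 44.0 and 17.3 in wild type libraries. The groups were apart in both. Hoxb3 averaged 14.3 ± 6.66 in knockout and 128 ± 55.5 in wild type libraries, 8.95 times as much in wild type, and its log2 change of -3.04 (SE 0.44) was the largest fall among the members tested. Hoxb4 averaged 7.39 ± 3.83 in knockout and 30.0 ± 13.4 in wild type libraries (log2 change -1.92, SE 0.51), and was not called when knockout replicate 2, or replicate 1 or 2 of the wild type, was left out. Hoxb2 was too low to be tested, with 4, 3 and 3 whole reads in knockout and 12, 17 and 10 in wild type libraries. Its summed reads were 3.78 times as many in wild type libraries (exact 95% interval 1.85 to 8.49, counting error only). Reads of Hoxb2 and Hoxb3 are uncertain, since 57.3% and 56.2% of their 50-base exonic windows are shared with the antisense gene Hoxb3os and the libraries are not stranded. For Hoxb13, Hoxb8 and Hoxb7 that share was 0%.

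**Figure D2:**
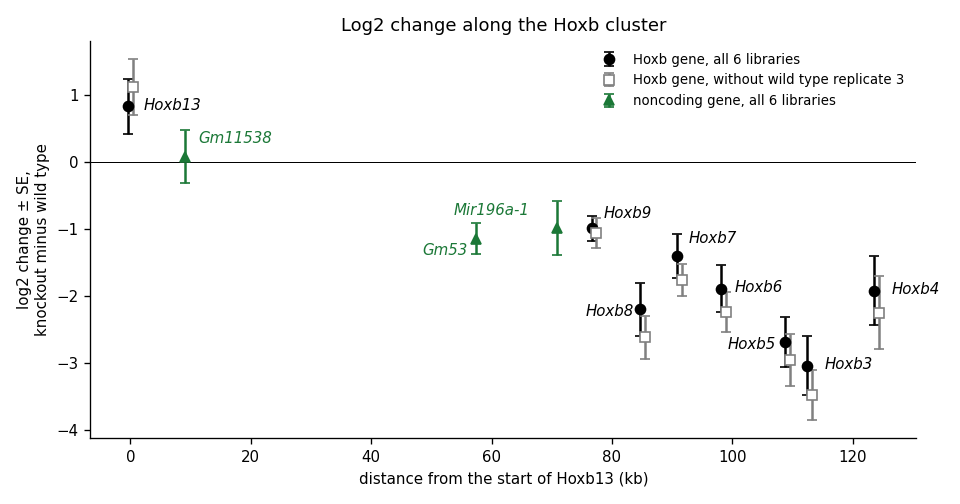
Log2 change, knockout minus wild type, with its SE (vertical axis) against the distance in kb from the start of Hoxb13 (horizontal axis), for the 8 tested Hoxb genes with all 6 libraries (black) and with wild type replicate 3 left out (open squares), and for 3 noncoding genes of the interval (green). Hoxb13 at the left is above 0 at 0.84, Hoxb9 is at -0.99, and Hoxb3 near the right is lowest at -3.04. Points stand at annotated starts, and Hoxb4 lies inside the annotated span of Hoxb3.

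Genes are ordered here by annotated start, and the annotated span of Hoxb3 contains that of Hoxb4. In this order the log2 changes were 0.84 at Hoxb13, -0.99 at Hoxb9, -2.20 at Hoxb8 and -1.40 at Hoxb7. They were -1.89 at Hoxb6, -2.69 at Hoxb5, -3.04 at Hoxb3 and -1.92 at Hoxb4. With the library labelled wild type replicate 3 left out they were 1.12, -1.06, -2.62, -1.77, -2.23, -2.96, -3.48 and -2.25, in the same order of genes. Falls were larger in genes of low number, but not in strict order, since Hoxb8 lay below Hoxb7 and Hoxb4 above Hoxb5 and Hoxb3. Spearman's rho between the paralog group and the log2 change was 0.81 over the 8 genes, and 0.81 when the library labelled wild type replicate 3 was left out. Those points share the same 6 libraries.

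In all 8 Hoxb genes from Hoxb9 to Hoxb2, the library labelled wild type replicate 3 was the lowest of the wild type libraries. It was also the lowest in 67.3% of all genes called lower. On a log2 scale with the knockout mean at 0% and the mean of the other wild type libraries at 100%, it stood at 79.7% for Hoxb9, 72.7% for Hoxb5, 62.3% for Hoxb3, 52.2% for Hoxb8 and 38.2% for Hoxb7. This library was intermediate for these genes, and at Hoxb13 it stood at 23.1%.

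The makeup of the Hoxb reads differed between the groups. Hoxb13 made up 70.9% (exact Clopper-Pearson 95% interval 68.4 to 73.3), 85.2% (83.9 to 86.4) and 83.1% (81.7 to 84.5) of the Hoxb reads in the knockout libraries, against 37.6% (35.5 to 39.7), 38.4% (36.4 to 40.4) and 63.2% (61.4 to 65.1) in the wild type libraries. The groups did not overlap, and the library labelled wild type replicate 3 was closest to the knockout libraries. Hoxb9 made up 17.2%, 11.5% and 12.1% in knockout and 29.25%, 28.9% and 22.9% in wild type libraries. The sum of the 8 members other than Hoxb13 was 408, 519 and 451 normalized reads in knockout and 1396, 1414 and 909.8 in wild type libraries. With Hoxb13 included the groups overlapped, at 1400.5, 3503.5 and 2674 in knockout and 2235, 2295 and 2475 in wild type libraries.

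**Figure D3:**
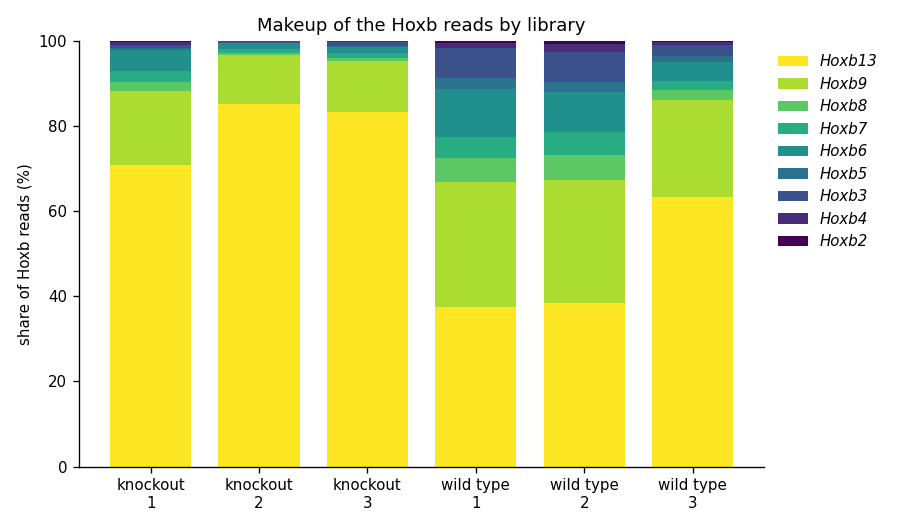
Share of each of the 9 Hoxb genes in the summed Hoxb reads of a library, in percent (vertical axis), with the 3 knockout libraries left of the 3 wild type libraries. Hoxb13 (yellow) takes 70.9% to 85.2% in knockout and 37.6% to 63.2% in wild type libraries.

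Per kb of exon (GENCODE M21), the order of levels was close in both groups. In knockout libraries Hoxb13 had 937 normalized reads per kb, Hoxb9 125, Hoxb7 26.0, Hoxb6 25.5, Hoxb8 8.09, Hoxb3 4.05, Hoxb5 3.51, Hoxb4 2.88 and Hoxb2 2.08. Neighbours in this order were apart in every library between Hoxb13 and Hoxb9, Hoxb9 and Hoxb7, and Hoxb6 and Hoxb8, and their ranges overlapped elsewhere. In wild type libraries the order per kb was Hoxb13 at 497, Hoxb9 244, Hoxb6 97.5, Hoxb7 73.7, Hoxb8 40.2, Hoxb3 36.3, Hoxb5 25.5, Hoxb4 11.7 and Hoxb2 7.88. There, neighbours were apart between Hoxb13 and Hoxb9 and between Hoxb9 and Hoxb6.

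Over the 6 libraries the Hoxb genes from Hoxb3 to Hoxb9 varied together, with Pearson's r of log2 values between 0.671 and 0.996 over 21 pairs. Hoxb13 ran the other way, with r from -0.85 to -0.34 against those 7 genes. These points share the group difference and have no p. The 5 genes most like the mean of the tested Hoxb genes other than Hoxb13, among 10225 candidates with a mean of at least 50, were Txnip, Sox21, Auh, Hsd17b13 and Bcorl1, each with r of 0.996 to 0.998, and 1027 candidates had r above 0.9. Those most like Hoxb13 were Pcx, Tmprss2, Cyp2d11, Cadps2 and Synpo, with r of 0.982 to 0.998, and 79 candidates had r above 0.9.

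The list of other Hox genes was not used to choose the members, though it was drawn up with earlier results of these data known. Of 30 other Hox genes (Hoxb1 and the Hoxa, Hoxc and Hoxd genes), 10 passed the filter and were tested. They were 8 Hoxa genes, 2 Hoxd genes and 0 Hoxc genes. Of the 30, 9 had no read in any library, Hoxb1 among them. Limma called 4 of the 10 higher, where 15.0% of all genes were, and 0 lower. At an unadjusted p under 0.05, 5 were higher and 1 lower, and edgeR and DESeq2 each called 4 higher and 0 lower. All those called belong to paralog groups 9 to 13, of which 6 genes were tested, and 4 tested genes of groups 1 to 8 were not called.

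Hoxd13, the posterior end of the Hoxd cluster on chromosome 2, had 166, 276 and 216 normalized reads in knockout and 54.1, 58.7 and 105 in wild type libraries. Hoxa10, on chromosome 6, had 431, 437 and 409.6 in knockout and 272, 186 and 270.5 in wild type libraries. Both rose without overlap of the groups, Hoxd13 with a log2 change of 1.62 (SE 0.30, limma adjusted p = 0.0071) and Hoxa10 with 0.83 (SE 0.17, limma adjusted p = 0.0101). Hoxa9 had 226, 189 and 271 in knockout and 133, 115 and 175 in wild type libraries (log2 change 0.70, SE 0.20, limma adjusted p = 0.0363). Hoxa13 had 117, 276 and 169.9 in knockout and 88.1, 67.5 and 107 in wild type libraries (log2 change 1.03, SE 0.32, limma adjusted p = 0.0441). The call of Hoxa9 was lost without knockout replicate 1 (limma adjusted p = 0.0628), knockout replicate 3 (0.0993), or replicate 1 (0.113) or 2 (0.122) of the wild type. That of Hoxa13 was lost without any 1 library other than knockout replicate 1, with limma adjusted p from 0.0536 to 0.140, and with upper-quartile scaling (0.0512).

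Set beside their paralogs, Hoxa13, Hoxd13 and Hoxb13 had log2 changes of 1.03, 1.62 and 0.84, all above 0. At group 9 the values were 0.70 for Hoxa9 and -0.99 for Hoxb9, at group 7 they were 0.14 for Hoxa7 and -1.40 for Hoxb7, and at group 5 they were 0.21 for Hoxa5 and -2.69 for Hoxb5. Hoxa3 had -0.57 (limma adjusted p = 0.0933) and Hoxb3 -3.04. The differences between paralogs were not tested. Over the 10 tested genes outside the Hoxb cluster, Spearman's rho between paralog group and log2 change was 0.87, or 0.91 with the library labelled wild type replicate 3 left out. Hoxd11 (log2 change 1.01, limma adjusted p = 0.0569) was not called with all 6 libraries, but was with wild type replicate 3 left out (0.0496) or with library weights (0.0497). Its wild type values, 7.43, 10.8 and 14.6, did not alone meet the filter. Its knockout values, 24.1, 18.6 and 24.8, did, so these calls are no independent support. Hoxd11 is among the 10 points of that rho. Hoxa2 (-0.18) and Hoxa11 (0.16) were not called either. Hoxd3, Hoxd4 and Hoxd8 were too low to be tested, so they do not enter that rho. They were lower in every knockout than in every wild type library, but by few reads. The highest knockout and lowest wild type libraries had 6 and 8 reads for Hoxd3, 5 and 7 for Hoxd4, and 6 and 7 for Hoxd8. The list holds 20 untested genes, and in Hoxd9, Hoxd10 and Hoxd12 the groups overlapped. Without a filter limma called Hoxd4 lower (log2 change -1.84, adjusted p = 0.0384), where 1982 of 18057 genes were called lower.

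**Figure D4:**
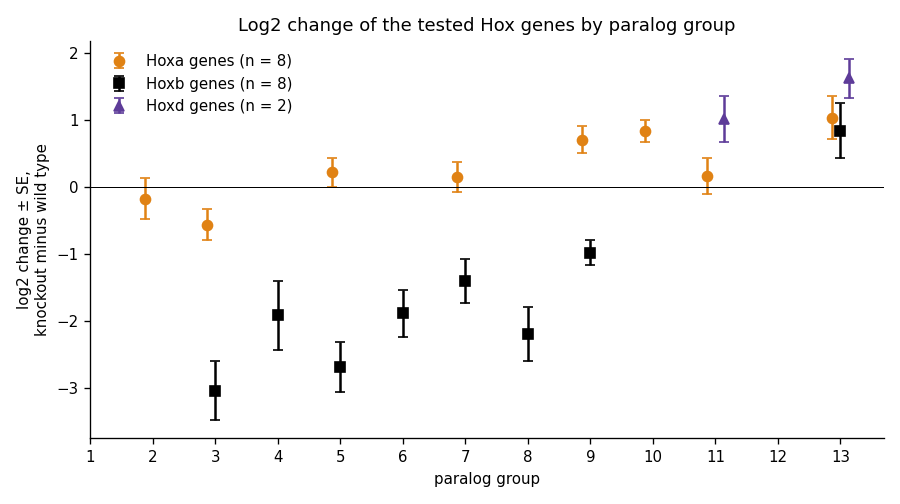
Log2 change, knockout minus wild type, with its SE (vertical axis) by paralog group (horizontal axis) for the 8 tested Hoxb genes (black), 8 Hoxa genes (orange) and 2 Hoxd genes (purple). Hoxb3 to Hoxb9 lie between -3.04 and -0.99, and the 3 genes of group 13 lie between 0.84 and 1.62.

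Among the Hox cofactors of the TALE homeodomain class, 5 of 9 were tested, 2 fell and the other 3 were not called. With 5 genes tested, nothing is read from this count beside the 15.4% of all genes called lower. Meis3, which binds DNA in complexes with Hox proteins, fell. It had 53.5, 39.3 and 29.6 in knockout and 107, 131 and 96.5 in wild type libraries (log2 change -1.46, SE 0.26, limma adjusted p = 0.0062). As in the Hoxb genes from Hoxb2 to Hoxb9, the groups did not overlap and the library labelled wild type replicate 3 was the lowest wild type library. The call of Meis3 was kept under every alternative tried and without each library.

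Of 13 regulators of hindgut and colon regional identity, 11 were tested, 5 fell and 1 rose. Over all genes tested, 15.4% were called lower and 15.0% higher. Cdx1 and Cdx2, the caudal homeobox factors of intestinal identity, are upstream regulators of Hox genes. Cdx1 had 1414, 1958 and 1801.5 normalized reads in knockout and 3679, 2832 and 2422.5 in wild type libraries (log2 change -0.78, SE 0.19, limma adjusted p = 0.0179). Cdx2 had 2111, 2059 and 1681 in knockout and 3227, 3653 and 2399.7 in wild type libraries (log2 change -0.65, SE 0.17, limma adjusted p = 0.0275). Both falls were smaller on the log2 scale than those of the Hoxb genes called lower, and either call was lost when replicate 1 of the wild type was left out (limma adjusted p = 0.0620 for Cdx1 and 0.0972 for Cdx2), or replicate 2 (0.0571 and 0.0986), and that of Cdx2 also without knockout replicate 3 (0.0777). Osr2, a zinc finger factor of mesenchymal patterning, had 56.6, 56.9 and 85.0 in knockout and 820.45, 1183 and 426 in wild type libraries (log2 change -3.50, SE 0.36, limma adjusted p = 0.0010). Tbx3 fell too (-1.74, limma adjusted p = 0.0086). Gata4, normally a factor of the proximal small intestine, had 39.8, 19.7 and 17.2 in knockout and 10.6, 8.80 and 7.29 in wild type libraries and was called higher (1.34, limma adjusted p = 0.0372). It passed the filter only through the knockout group, where it is high, so this call is no independent support. The call of Gata4 was lost without any 1 library other than knockout replicate 3, with limma adjusted p from 0.0535 to 0.101, and with quantile normalization (0.0516).

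Polycomb and Trithorax genes, whose products hold Hox clusters silent or active, were all tested: 5 of 25 fell, 1 rose and 19 were not called, a called share of 24.0% beside 30.5% of all genes. Bmi1 and Pcgf2 encode alternative subunits of Polycomb complex 1. Bmi1 had 325, 263 and 257 normalized reads in knockout and 117, 133 and 150.3 in wild type libraries (log2 change 1.07, limma adjusted p = 0.0036), and Pcgf2 had 94.3, 109.7 and 117 in knockout and 221, 287 and 221 in wild type libraries (-1.17, limma adjusted p = 0.0032). Each pair of groups was apart. The chromodomain subunit Cbx8 (log2 change -1.42, limma adjusted p = 0.0089) fell. Ring1 (-0.47, limma adjusted p = 0.0438) and Cbx7 (-0.56, limma adjusted p = 0.0489) also fell, with calls lost without a filter (0.0527 and 0.0640), with quantile normalization (0.0647 and 0.0664) and in several leave-one-out fits, at limma adjusted p up to 0.149 and 0.165.

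**Figure D5:**
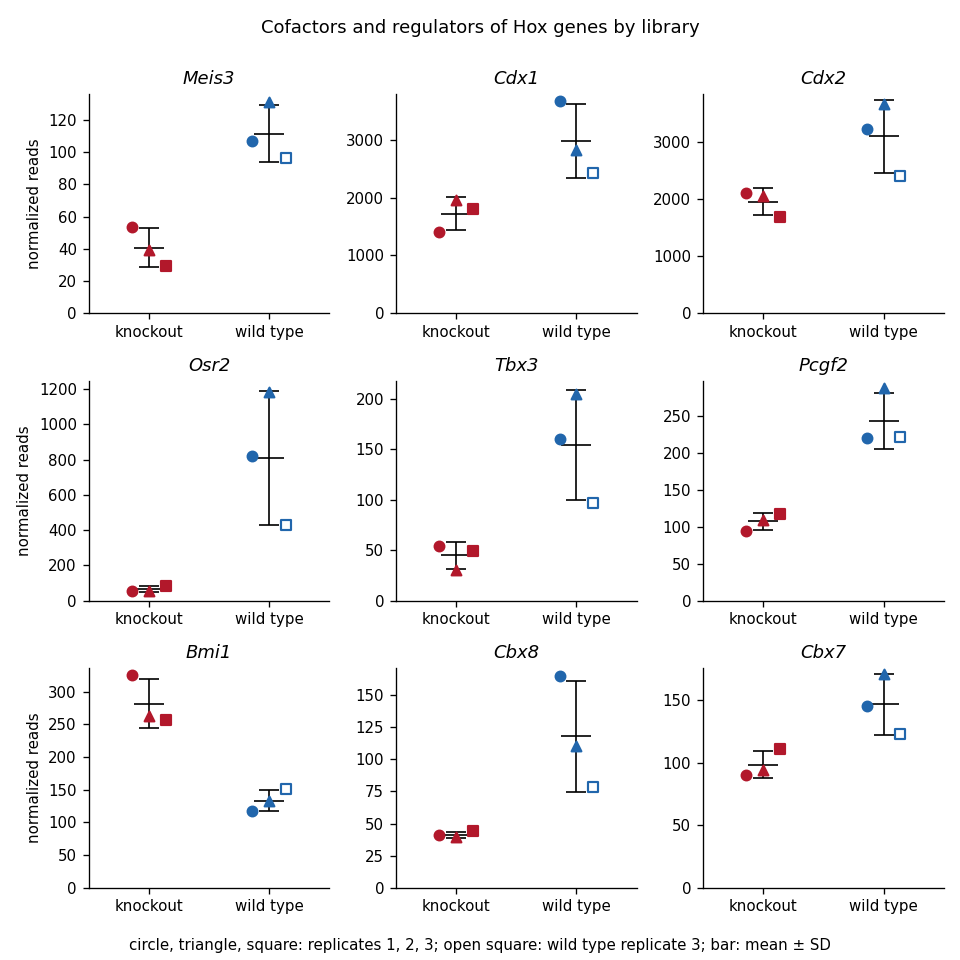
Normalized reads (vertical axis of each panel, starting at 0) of 9 genes in the 3 knockout libraries (red) and 3 wild type libraries (blue). Bars are at the mean ± SD. The genes are the Hox cofactor Meis3, the hindgut regional regulators Cdx1, Cdx2, Osr2 and Tbx3, and the Polycomb genes Pcgf2, Bmi1, Cbx8 and Cbx7. Bmi1 is the 1 gene of the 9 with red points above blue, and Osr2 has knockout points at 56.6 to 85.0 and wild type points at 426 to 1183.

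Of 18 genes of retinoic acid signalling, the vitamin A pathway that acts on the 3′ Hox genes, 9 were tested. Of these 9, 3 rose and 4 fell, where 15.0% of all genes were called higher and 15.4% lower. Aldh1a3, which makes retinoic acid, and Rdh10, which makes its precursor, rose by 5.03 (limma adjusted p = 0.0039) and 1.44 (limma adjusted p = 0.0101) on the log2 scale. Aldh1a1, which makes retinoic acid too, fell (log2 change -1.32, limma adjusted p = 0.0012), as did Dhrs3, which returns retinaldehyde to retinol (-1.56, limma adjusted p = 0.0011). The receptor genes Rarg (-0.87, limma adjusted p = 0.0099) and Rxra (-0.53, limma adjusted p = 0.0262) fell, and the call of Rxra was lost without knockout replicate 1 (0.0528), knockout replicate 2 (0.0607), or replicate 1 (0.0879) or 2 (0.0978) of the wild type. Rara had a log2 change of 0.15 and was not called. Genes of synthesis thus moved in both directions. With the library labelled wild type replicate 3 left out, 12.5% of all genes were called lower and 12.6% higher. Calls lower and higher then numbered 0 and 4 for the other Hox genes and 2 and 0 for the cofactors. For the hindgut regulators they numbered 4 and 0, for Polycomb and Trithorax 4 and 1, and for retinoic acid 4 and 3.

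The tested genes beyond the Hoxb13 end of the cluster, or between Hoxb13 and Hoxb9, did not share 1 direction. Of 26 genes annotated within 300 kb of either end or between the Hoxb genes, 15 had a row and 10 were tested. Of these 10, 3 fell and 2 rose, where 15.4% of all genes were called lower and 15.0% higher. None of the 10 lies between Hoxb9 and Hoxb2 or beyond Hoxb2. There, Mir10a and Skap1 were too low to be tested and Gm11529 had no read, so that side was not described. Gm53, a noncoding gene between Hoxb13 and Hoxb9 (chr11:96251660-96264484), had 166, 299 and 247 normalized reads in knockout and 469, 611 and 462 in wild type libraries (log2 change -1.14, SE 0.23, limma adjusted p = 0.0096). Gm11538, nearer to Hoxb13, had a log2 change of 0.08 (limma adjusted p = 0.886). Outside the cluster B4galnt2, a glycosyltransferase gene, fell (-1.32, limma adjusted p = 0.0047). Ttll6 also fell (-1.71, limma adjusted p = 0.0353), a call lost on leaving out any 1 wild type library (0.0764, 0.0936 and 0.0929 for replicates 1, 2 and 3). Igf2bp1, a fetal RNA-binding protein gene, rose (1.47, limma adjusted p = 0.0188), a call lost on leaving out replicate 1 (0.0669) or 2 (0.0607) of the wild type libraries. Snf8 rose by 0.30 on the log2 scale (limma adjusted p = 0.0454), a call lost without each of the 6 libraries in turn and under 5 other alternatives, edgeR among them (adjusted p = 0.0514).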

How the data were processed

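The values are a normalized signal, made by the authors by dividing the reads of each gene by 1 DESeq2 size factor for its library, as the submitters' processing notes and the steps in the values show. The notes also name FastQC, TopHat and the build mm10, while the read counter and gene models were not given in the sources used. Non-stranded mRNA libraries were made, per the labels' protocols. All values of a library were multiples of the value of 1 read, and 100% came out as whole reads within 0.001, at 10089313 to 12030844 reads per library. Of 23725 rows, 23666 had a gene symbol in RefSeq's annotation of GRCm38.p6 (mm10).

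The test was limma 3.58.1 (R 4.3.3) with an intensity-dependent prior on log2(value + 1), over the 12837 genes that reached 10 in 3 or more libraries, with Benjamini-Hochberg adjustment over all of them and a threshold of 0.05. A log2 change is knockout minus wild type on the log2(value + 1) scale, which understates the change of low genes. edgeR 4.0.16 and DESeq2 1.42.0 were run on the recovered reads as alternatives, and edgeR called 2006 genes lower and 1887 higher. Other alternatives were pseudocounts of 0.5 and 5, no filter, a filter at 50, scaling by TMM, upper quartile or quantiles, a robust prior, library weights and leaving out each library.

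No replicate pair agreed within sampling noise (chi-square per degree of freedom 14.2 to 53.9), so no pair was counted as 1 library. That does not show that each library is a separate mouse. Intervals on shares and ratios cover counting error only, since reads were not tagged as molecules. Named genes are the 9 members, Nr3c1, in each other list those past the threshold (at most 8, by adjusted p), Hox genes of the members' paralog groups, and the 5 genes most like the members by correlation. Smooth muscle and endothelial markers were also read: 0 of 3 tested markers were called in either list, with sums of 539 to 622 in knockout and 519 to 689 in wild type libraries for muscle, and 31.0 to 53.5 in knockout and 51.8 to 57.4 in wild type libraries for endothelium. The members and all lists were chosen with earlier results of these data known. Some genes that this rule names are left out of the text and are not reported here, though the counts of their lists include them.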

Additional observations from a re-analysis of the deposited data

How the results depend on the processing

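No paired analysis was possible because the labels number no replicates and give no pairing, so that the numbers used here follow the accession order. The members called lower numbered 7 with all 6 libraries, 5 to 7 when 1 library was left out, and 5 to 8 under the other alternatives. They numbered 8 without a filter, where Hoxb2 was tested and called lower, and 1982 of all 18057 genes were called lower. With a filter at 50 they numbered 5, where Hoxb4 and Hoxb5 were not tested, and 1686 of all 10660 genes were called lower. The members called higher numbered 0, against 1 (Hoxb13) with library weights and with DESeq2, and 0 to 1 when 1 library was left out. Of all 12837 genes, 2052 were called higher with library weights and 2148 with DESeq2. The log2 change of Hoxb13 ranged from 0.50 to 1.29 over the left-out libraries. With a pseudocount of 5 the log2 change of Hoxb5 was -2.175, against -2.69. Other Hox genes called higher numbered 4, and 2 to 4 when 1 library was left out, with 2 without knockout replicate 3, wild type replicate 1 or wild type replicate 2. Those called lower numbered 0, against 1 (Hoxd4) without a filter. Over all genes, 970 to 1782 were called higher when 1 library was left out, against 1931, and 953 to 1825 lower, against 1979. The lowest counts were without wild type replicate 1 (970 and 953) and wild type replicate 2 (997 and 963), and an arm then holds 1 fewer library. No direction of a member was reversed under the alternatives tried. Hoxb2, Hoxb4 and Hoxb5 rest on 10 reads or fewer per knockout library, so their ratios are imprecise at this depth.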

Other observations

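The following 4 noncoding genes of the Hoxa and Hoxd clusters were chosen after their values were seen. Hoxa11os, antisense to Hoxa11, had 197, 354 and 331 normalized reads in knockout and 250.5, 279 and 464 in wild type libraries (log2 change -0.16, limma adjusted p = 0.696). Hottip, at the posterior end of the Hoxa cluster, had 35.6, 165 and 119 in knockout and 120, 60.6 and 157 in wild type libraries (log2 change -0.23, limma adjusted p = 0.782). The groups overlap in both genes. In the Hoxd cluster, Hoxd3os1 had 2.10, 2.07 and 0.955 normalized reads in knockout and 6.37, 7.82 and 4.55 in wild type libraries, lower in every knockout library but too low to be tested. Haglr, also too low to be tested, had 0, 0 and 0.955 in knockout and 6.37, 1.96 and 0.911 in wild type libraries, and its groups overlap. Reads of Hoxa11os cannot be told from those of Hoxa11 in non-stranded libraries.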
